A study of Myotis pilosus with 4 samples.

Results

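The miRNAs described here are miR-199-3p, miR-199-5p and miR-145-3p, 3 mature miRNAs, or 1.53% of those that the study listed for the bat Myotis ricketti. All 3 are conserved, whereas 77 of the others are bat-specific. They were chosen as the listed miRNAs of mesenchyme and smooth muscle, by the listed mature sequence and not by a level. Each was looked up among the sequence tags of 4 small RNA libraries, and its count was the count of the tag identical to the listed sequence. The libraries came from wild bats, whole brain and intra-abdominal white adipose tissue (WAT). HB and HA are the brain and the WAT of bats taken in deep hibernation, and AB and AA are the same tissues of active bats with a normal body temperature, a state that the labels call aroused. Each library was 1 pool of total RNA from 3 bats, so there was no replicate, no p-value can be given, and the differences below are differences between pools. The active bats were caught in autumn and the hibernating bats in late winter, so state and season cannot be told apart. Depth ranged from 10007650 clean reads in AB to 12159756 in HB.

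A miRNA hairpin has a 5p and a 3p arm, and either arm can be loaded into an Argonaute protein, where bases 2 to 8 of the miRNA, the seed, do most of the target pairing. miR-199 is known from mesenchyme, fibroblasts and cartilage, lies antisense within dynamin introns and has several near-identical gene copies in mammals, from which the same 3p arm is made. miR-145 is made together with miR-143 from 1 primary transcript and is best known from vascular smooth muscle, where it favours the contractile state. Vessels and connective tissue run through both brain and fat.

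The listed sequences are shown because every count rests on them. They are written 5′ to 3′ with T for U, as the files have them, and capitals mark the seed.
miR-199-3p: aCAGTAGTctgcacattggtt
miR-199-5p: cCCAGTGTtcagactacct
miR-145-3p: aTTCCTGGaaatactgttct
None of the 3 seeds was shared with another listed miRNA. The tags are short at the 3′ end, 19 to 21 nt, and longer tags of each are described after the levels.

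The tags also held relatives that the list leaves out. A search for tags whose first 18 nt differ from those of a member at 1 or 2 positions found a 5p sequence of miR-199 with 2 substitutions, C10T and C17T, counted from 1 at the 5′ end with the listed base first. Capitals mark the positions that differ.
Listed miR-199-5p: cccagtgttCagactaCct
Second 5p tag of miR-199: cccagtgttTagactaTct
Both carry the same seed, and the second matches what is known in other mammals as miR-199b-5p. The 5p arm of miR-145 was also missing from the list. It was looked for, after the data had been seen, among 933 tags that hold the reverse complement of the first 8 bases of miR-145-3p. The most abundant of them, which begins as miR-145-5p of other mammals does, is shown beside the 3p arm, with the complementary bases in capitals.
5p tag of miR-145: gtccagttttcCCAGGAAT
miR-145-3p: ATTCCTGGaaatactgttct
Tags with the first 18 nt of this 5p tag held 86.2% of the 10345 reads found by the search. No genome was used, so the hairpins and gene copies behind these tags were not located.

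miR-199-3p was by far the most abundant of the 3. In brain, it had 524 reads per 1000000 clean reads (RPM) in HB (95% Poisson interval 511 to 537) and 802 in AB (784 to 820). In WAT, it had 13529 RPM in HA (13462 to 13596) and 40099 in AA (39983 to 40215). The WAT libraries therefore stood far above the brain libraries, and no pair of intervals overlapped. By rank among the listed tags, it was 18 in both brain libraries, 4 in HA and 1 in AA. The first rank in AA depended on the count. With all tags that begin with its first 18 nt, miR-199-3p had 810511 reads there. By that count miR-7b-5p and miR-7d-5p, which share these bases, had 1231807, miR-100-5p 844107 and miR-378-3p 831788. Of the reads of all listed tags, miR-199-3p took 0.334% in AB, 0.250% in HB, 19.2% in AA and 10.3% in HA. In AA it was also the most abundant tag of any kind, with 4.01% of all clean reads. The intervals here and below hold only the error of counting, because PCR can copy a molecule many times and a pool hides differences between bats.

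miR-199-5p, the other arm of the same hairpins, was low in brain. It had 1.32 RPM in HB (0.752 to 2.14) and 2.20 in AB (1.38 to 3.33), from 16 and 22 reads. It had 38.3 RPM in HA (34.8 to 42.0) and 86.4 in AA (81.1 to 91.9), from 442 and 988 reads. The order of the 4 libraries was that of miR-199-3p, with AA highest, but HB and AB did not differ beyond their counting intervals.

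miR-145-3p, the less used arm of miR-145, was the rarest in AB, HA and AA, but lay above miR-199-5p in HB. It had 1.81 RPM in HB (1.13 to 2.74) and 0.699 in AB (0.281 to 1.44), from 22 and 7 reads. It had 18.9 RPM in HA (16.5 to 21.6) and 15.1 in AA (13.0 to 17.6), from 218 and 173 reads. Both WAT libraries were above both brain libraries, while the hibernating and active intervals overlapped within each tissue. Unlike both arms of miR-199, the listed tag was at its highest RPM in HA and its lowest in AB.

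**Figure D1:**
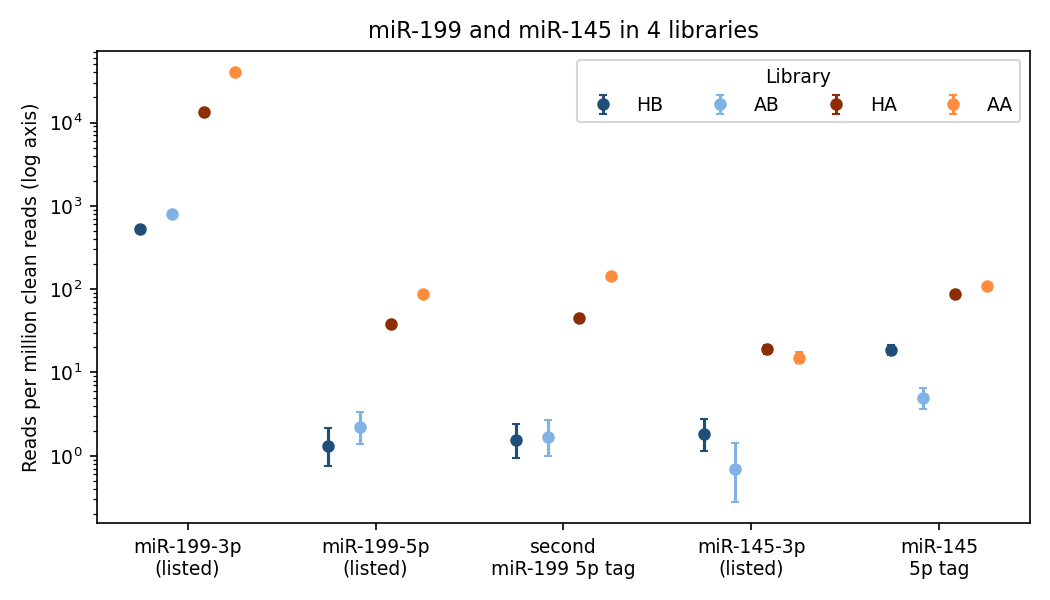
Level of the 3 listed miRNAs, of the second 5p tag of miR-199 and of the 5p tag of miR-145 in the 4 libraries, as reads per 1000000 clean reads on a log axis, with 95% Poisson intervals (smaller than the point where not visible). All 5 tags were higher in both WAT libraries (HA, AA) than in both brain libraries (HB, AB), with miR-199-3p from 524 in HB to 40099 in AA.

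The comparison of tissues asks where these miRNAs are found. A ratio between 2 libraries was scaled by TMM, a trimmed mean over the listed miRNAs, and called higher or lower where its log2 size was 1 or more and both libraries together had 10 or more reads. In active bats, all 3 miRNAs were called higher in WAT than in brain, beside 36.5% of the 159 miRNAs that could be called, with 38.4% lower and 74.8% called in either direction. The log2 ratio of AA over AB was 5.74 for miR-199-3p (95% counting interval 5.70 to 5.77), a 53.3-fold difference. It was 5.39 for miR-199-5p (4.78 to 6.07) and 4.53 for miR-145-3p (3.45 to 5.86). Of the 159 miRNAs, 2 had a higher ratio than miR-199-3p, 3 a higher ratio than miR-199-5p and 11 a higher ratio than miR-145-3p.

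In hibernating bats, all 3 were again called higher in WAT, beside 35.2% of 159, with 40.9% lower and 76.1% called in either direction. The log2 ratio of HA over HB was 4.78 for miR-199-3p (4.75 to 4.82), a 27.6-fold difference. It was 4.96 for miR-199-5p (4.24 to 5.78) and 3.48 for miR-145-3p (2.84 to 4.18). Here 9, 7 and 18 of the 159 miRNAs had higher ratios. Both arms of miR-199 thus lay near the top of the WAT side in both states, and miR-145-3p somewhat below them. The 2 comparisons share no library, but HB, AB, HA and AA each enter 1 comparison of tissues and 1 of states.

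The relatives outside the list lay on the same side. The second 5p tag of miR-199 had 1.70 RPM in AB, 1.56 in HB, 142 in AA and 44.6 in HA, with log2 ratios of 6.48 (5.80 to 7.26) in active and 4.93 (4.27 to 5.67) in hibernating bats. The 5p tag of miR-145 had 4.90 RPM in AB, 18.8 in HB, 110 in AA and 87.5 in HA, with log2 ratios of 4.58 (4.16 to 5.02) and 2.32 (2.11 to 2.53). The WAT excess of the miR-145 5p tag was thus smaller in the hibernating pair, with its level in HB above that in AB.

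The 2 tissues also differed in miRNAs of other cell types, given here as sums of the listed tags. The neuronal miRNAs miR-124a-3p, miR-124b-3p, miR-124-5p and miR-9-3p summed to 37583 RPM in HB and 51503 in AB, and to 34.7 in HA and 30.9 in AA, where 1 of the 4, miR-124-5p, was at 0. They were thus far higher in the libraries labelled brain, although their sum in WAT was still above the level of miR-145-3p there. The striated muscle miRNAs miR-1-3p, miR-133-3p and miR-206-3p summed to 1948 and 1605 RPM in the brain libraries and to 17409 in HA and 18253 in AA, with none at 0 and miR-1-3p highest. The blood cell miRNAs miR-142-5p, miR-142-3p, miR-486-5p and miR-486-3p summed to 62.4 RPM in AB, 28.1 in HB, 268 in AA and 253 in HA, with none at 0 and miR-486-5p highest. The epithelial miRNAs miR-200a-3p and miR-200b-3p summed to 10.2, 30.3, 25.9 and 2.45 RPM in HB, AB, HA and AA, with miR-200a-3p at 0 in AA. The sums of muscle and of blood cell miRNAs were therefore higher in the WAT libraries, as miR-199 and miR-145 were. Within each state, every blood cell miRNA had a higher RPM in WAT than in brain. miR-486-3p had 4.52, 23.8, 13.1 and 31.9 RPM in HB, AB, HA and AA, so HA lay below AB across states. Its log2 ratio of AA over AB was 0.52, under the size for a call. The part of muscle and blood cells in the ratios of miR-199 and miR-145 was not tested. In bulk pools, fewer cells of a type and less RNA per cell cannot be told apart.

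A further 11 listed miRNAs known from fibroblasts, cartilage, endothelium or smooth muscle did not move as 1 group. In active bats, 5 of the 10 that could be called were higher in WAT and 1 was lower, with a median log2 ratio of 0.95 beside 0.01 over all 159. In hibernating bats, 6 of 10 were higher and 1 was lower, with a median of 1.37 beside -0.20. miR-10-5p, a Hox cluster miRNA, had log2 ratios of 4.30 in active and 6.96 in hibernating bats. miR-503-5p, a relative of miR-16 known from endothelium, had 3.45 and 3.34. miR-130-3p had 3.71 and 2.32, and miR-22-3p had 2.75 and 2.49. miR-222-3p, also known from endothelium, was on opposite sides, with -1.08 in active and 1.44 in hibernating bats, and so was miR-455-3p, known from cartilage, with 1.31 and -1.52. miR-24-3p was called in hibernating bats only, at 1.30. miR-221-3p had at most 2 reads of its listed tag in any library, so it was not among the 10. Tags holding its bases 2 to 17 had 23134, 26843, 5058 and 4907 reads in HB, AB, HA and AA. By that count miR-221-3p was lower in WAT than in brain in both states, against the direction of most of the called members. By the listed tags, the ratios of both arms of miR-199 and of miR-145-3p were above that of each of these in active bats, and miR-10-5p alone lay above them in hibernating bats. By the first 18 nt, miR-145-3p had 3.58 in active bats, below miR-10-5p at 4.84 and miR-130-3p at 3.69, and 3.40 in hibernating bats, below miR-10-5p at 7.24 and miR-503-5p at 3.45. The same count put miR-222-3p at -0.35 and 1.61 and miR-455-3p at 2.08 and 0.74 in active and hibernating bats, so miR-455-3p was then above 0 in both.

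The comparison of states asks what differed in hibernation, and here the 3 miRNAs did not move together. In WAT, 1 of the 3 was called lower in hibernation, beside 28.9% of the 142 miRNAs that could be called, and none was called higher, beside 20.4%, out of 49.3% called in either direction. The log2 ratio of HA over AA was -1.22 for miR-199-3p (-1.23 to -1.21), 2.33-fold lower in hibernation. It was -0.82 for miR-199-5p (-0.99 to -0.66) and 0.67 for miR-145-3p (0.38 to 0.97). The median of all 142 ratios was -0.29, so relative to it the 3 values were -0.93, -0.53 and 0.96. The counting intervals of both arms of miR-199 lay below 0 and that of miR-145-3p above it. The call of miR-199-3p was lost under 2 other scalings, with -0.97 by DESeq2 size factors and -0.44 by TMM over the conserved miRNAs, and the latter also put miR-199-5p at -0.046 and miR-145-3p at 1.45, past the size for a call.

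In brain, 1 of the 3 was called higher in hibernation, beside 22.9% of 153 miRNAs, and none was called lower, beside 17.6%, out of 40.5% called in either direction. The log2 ratio of HB over AB was -0.32 for miR-199-3p (-0.37 to -0.28) and -0.45 for miR-199-5p (-1.48 to 0.54). It was 1.66 for miR-145-3p (0.38 to 3.13), from 22 against 7 reads. That call was made with the listed tag alone. With all tags that begin with its first 18 nt, 52 against 29 reads, the log2 ratio was 0.58 (-0.10 to 1.29). The TMM factor changed with the count rule, and with the factor of the listed tags the same reads gave 0.85 (0.17 to 1.56). Both values were under the size for a call, and whether the interval included 0 depended on the scaling.

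**Figure D2:**
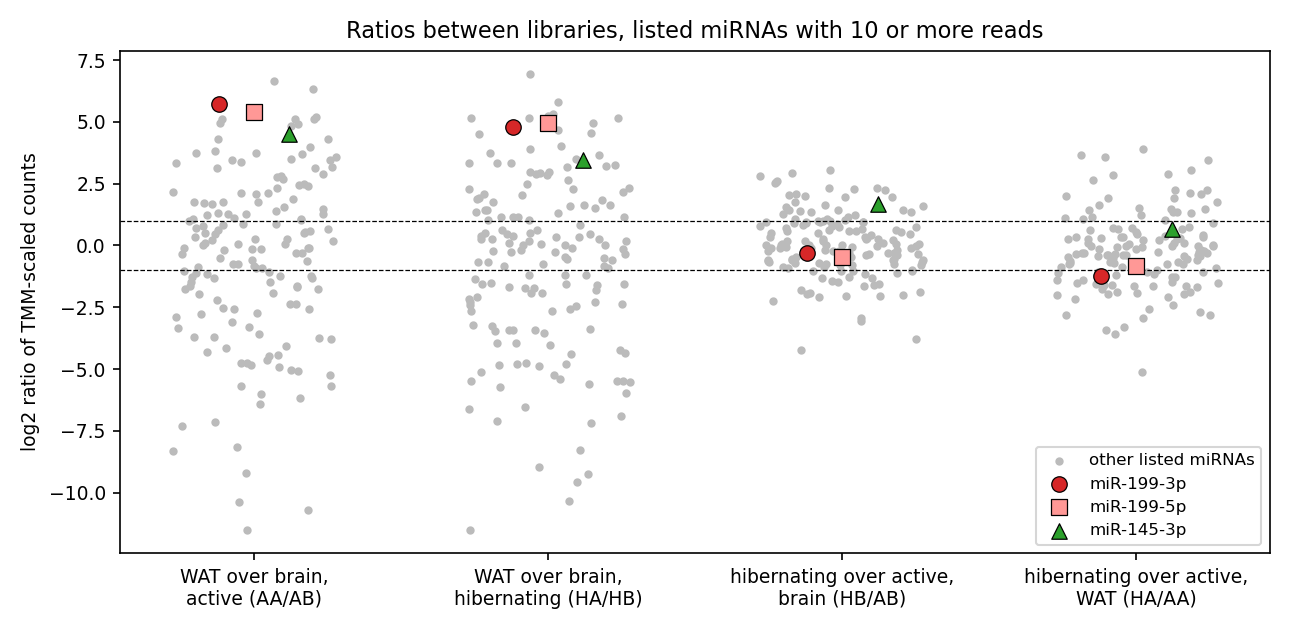
log2 ratios of TMM-scaled counts in the 4 comparisons of libraries for the listed miRNAs with 10 or more reads (grey points, spread sideways at random), with miR-199-3p, miR-199-5p and miR-145-3p drawn large and dashed lines at 1 and -1. The 3 lie at 3.48 to 5.74 in both comparisons of tissues and at -1.22 to 1.66 in both comparisons of states.

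The balance between miR-145-3p and miR-199-3p needs no scaling, as both come from the same library. miR-145-3p had 3.45 reads per 1000 reads of miR-199-3p in HB and 0.872 in AB, and 1.40 in HA and 0.377 in AA. In both tissues the ratio was thus higher in hibernation, 3.96-fold in brain (exact conditional interval 1.63 to 11.0) and 3.70-fold in WAT (3.02 to 4.55). With the first 18 nt, these became 1.86-fold (1.16 to 3.03) and 3.21-fold (2.80 to 3.69). In hibernating bats it was 2.47-fold higher in brain than in WAT (1.52 to 3.84), and in active bats 2.31-fold (0.916 to 4.87), an interval that includes 1. With the first 18 nt, it was 2.56-fold (1.88 to 3.41) in hibernating and 4.43-fold (2.92 to 6.47) in active bats, and both intervals excluded 1.

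The other stromal and vascular miRNAs showed no shared change with state either. In WAT, by the listed tags, none of 10 was called higher in hibernation. Called lower were 3, miR-455-3p at -2.70, miR-100-5p at -1.08 and miR-130-3p at -1.01. The median log2 ratio was 0.32 beside -0.29 over all. By the first 18 nt, miR-10-5p at 1.11 (1.04 to 1.18) and miR-221-3p at 2.51 (1.22 to 4.07) were past the size for a higher call. For miR-221-3p this was from 29 against 6 reads, and by bases 2 to 17 it had 5058 against 4907. By the first 18 nt, miR-130-3p at -1.35 and miR-455-3p at -1.04 stayed lower, while miR-100-5p at -0.74 was under the size for a call. In brain, by the listed tags, none of 10 was called higher and 2 were called lower, miR-222-3p at -1.93 and miR-10-5p at -1.78. The median was 0.13 beside 0.01. By the first 18 nt, miR-222-3p at -1.54 and miR-10-5p at -1.55 stayed lower.

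The miR-199 hairpins were read almost only on the 3p arm. There were 398, 365, 353 and 464 reads of miR-199-3p per read of miR-199-5p in HB, AB, HA and AA. Put the other way, miR-199-5p had 2.51, 2.74, 2.83 and 2.15 reads per 1000 of the 3p arm in HB, AB, HA and AA, a narrow range beside the change in level between tissues. Over the 4 libraries, the log2 of 3p over 5p reads was 8.74, which was number 23 from the lowest of the 24 hairpins with 10 or more reads on each listed arm. Among those, miR-29 lay above it at 12.8 and miR-129 next below at 5.45. A further 22 hairpins had fewer reads on an arm. By the listed tags, 3 of them, miR-448, miR-28 and miR-3958, leaned further to the 3p arm, with 8, 1 and 9 reads of the 5p arm. For miR-28 and miR-448 this depended on the count. By bases 2 to 17 miR-28 had 544, 299, 910 and 1040 5p reads in HB, AB, HA and AA, against 684, 1185, 4915 and 5639 3p reads. By that count miR-199 had 593, 479, 530 and 653 3p reads per 5p read, so miR-28 leaned less than miR-199. miR-448 had 30, 28, 0 and 2 5p reads by that count, against 7589, 6782, 161 and 1426 3p reads. It thus leaned less than miR-199 in both brain libraries, where most of its reads lay. The order of all hairpins by that count was not computed. In other mammals several gene copies give the same 3p arm, and here the second 5p tag adds to the 5p reads of the listed one.

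Between states, the 5p share of miR-199 was 1.31-fold higher in HA than in AA (1.17 to 1.47) with the listed tag alone. Together with the second 5p tag it was, per 1000 reads of the 3p arm, 4.86 in AB, 5.49 in HB, 5.70 in AA and 6.13 in HA, and the ratio of HA over AA was 1.08 (0.998 to 1.16). The interval thus excluded 1 with the listed tag alone and included it with both. The second tag had 1.19, 0.773, 1.17 and 1.64 reads per read of the listed tag in HB, AB, HA and AA, and this ratio was 0.708-fold in HA over AA (0.608 to 0.825). In brain its interval was wide, with HB over AB at 1.54 (0.557 to 4.25). By TMM, the second tag itself had a log2 ratio of -1.32 (-1.47 to -1.18) in HA over AA, beside -0.82 for the listed tag, and 0.17 (-0.85 to 1.20) in HB over AB.

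miR-145 was read mostly on the 5p arm. With 1 tag per arm there were 10.4, 7, 4.63 and 7.24 reads of the 5p tag per read of miR-145-3p in HB, AB, HA and AA. With all tags that share the first 18 nt of each arm, there were 4.72 in AB, 10.5 in HB, 15.9 in AA and 6.18 in HA. The 5p arm was thus the larger in all 4 libraries under both counts, but the hibernating library was the higher of the pair in brain and the lower in WAT. With the first 18 nt, the 5p arm per 3p arm was 2.23-fold higher in hibernating than in active brain (1.31 to 3.73) and 2.57-fold lower in hibernating than in active WAT (2.23 to 2.98), and the difference between the tissues was not tested. With 1 tag per arm it was 1.48-fold (0.505 to 3.84) in brain and 1.56-fold lower in hibernating WAT (1.25 to 1.95).

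The level of the 5p arm of miR-145 also turned on which of its 3′ forms was counted. The commonest forms are shown because they gave different answers, with the seed in capitals.
19 nt form: gTCCAGTTttcccaggaat
23 nt form: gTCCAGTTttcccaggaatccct
The 19 nt form had 228, 49, 1010 and 1253 reads in HB, AB, HA and AA, and the 23 nt form had 30, 11, 288 and 1063. In WAT, the log2 ratio of HA over AA was 0.03 (-0.10 to 0.15) for the 19 nt form and -1.55 (-1.74 to -1.36) for the 23 nt form. In brain, HB was above AB for both, at 2.23 (1.78 to 2.70) and 1.46 (0.42 to 2.60). With all tags of the first 18 nt, the arm had 13.7 RPM in AB, 45.1 in HB, 505 in AA and 261 in HA, and log2 ratios of 1.74 (1.47 to 2.02) in brain and -0.70 (-0.76 to -0.64) in WAT. These ratios were scaled by TMM only. Tags that ran 2 or more bases past the 19 nt form held 43.1% of these reads in AB, 35.6% in HB, 64.2% in AA and 48.4% in HA.

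**Figure D3:**
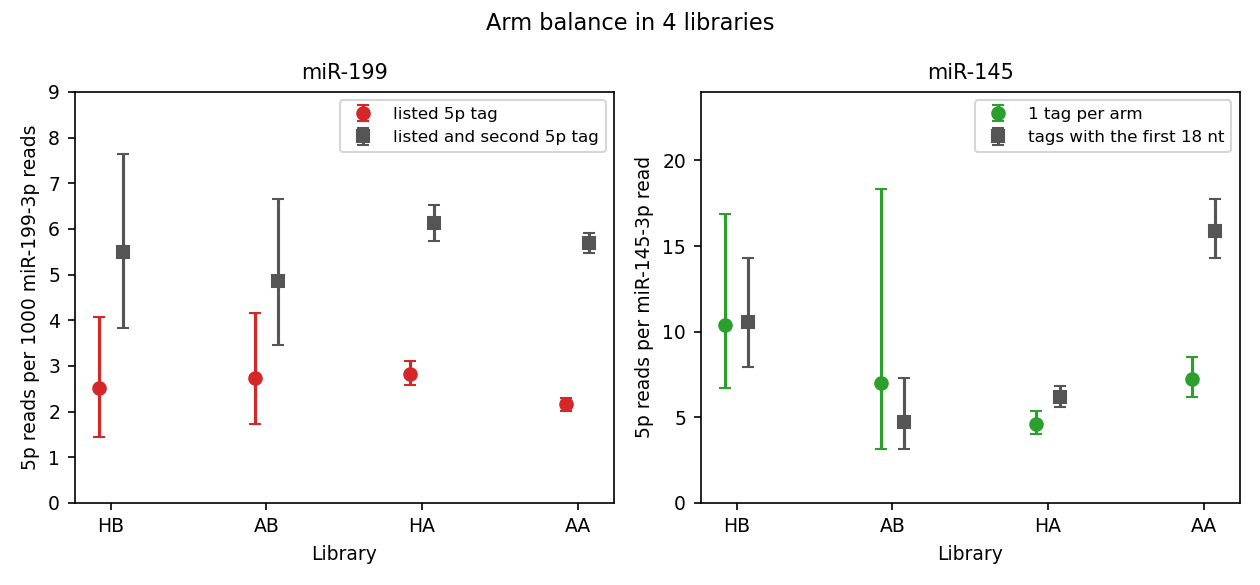
Arm balance in the 4 libraries, as 5p reads per 1000 reads of miR-199-3p (left, listed 5p tag alone or with the second 5p tag) and as 5p reads per read of miR-145-3p (right, 1 tag per arm or all tags with the first 18 nt), with 95% intervals. The miR-199 values stay between 2.15 and 6.13 per 1000, and the miR-145 values go from 4.63 to 15.9.

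The 3′ end of miR-199-3p differed between states more than between tissues. Among reads with its first 18 nt, the listed 3′ end held 54.9% in AB (54.1 to 55.7), 45.1% in HB (44.3 to 45.9), 56.6% in AA (56.5 to 56.7) and 46.1% in HA (45.9 to 46.3). Both hibernating libraries were therefore lower than both active ones. Tags that ran exactly 1 base further held a near-constant 29.1%, 30.7%, 29.9% and 30.7% in HB, AB, HA and AA. Tags that ran 2 or more bases further held 3.43% in AB, 8.12% in HB, 2.84% in AA and 8.09% in HA. Shorter tags held 7.51%, 5.49%, 7.04% and 5.85% in HB, AB, HA and AA, and tags whose last bases depart from the listed sequence held 10.2%, 5.48%, 8.86% and 4.04%.

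Most other miRNAs also had a lower share in the hibernating library, and the median difference was smaller than that of miR-199-3p. The listed tag's share was lower in HB than in AB for 66 of 113 miRNAs with 100 or more reads of the first 18 nt in each, 58.4%, with a median difference of -0.858 percentage points beside -9.79 for miR-199-3p, and 18 of the 113 had a lower difference still. It was lower in HA than in AA for 74 of 104, 71.2%, with a median of -3.97 points beside -10.5 for miR-199-3p, and 17 of the 104 had a lower difference still. The log2 ratio of HA over AA for miR-199-3p was -1.22 with the listed tag, -0.92 (-0.93 to -0.92) with the first 18 nt at the same scaling, under the size for a call, and -1.02 with the first 18 nt and their own scaling.

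The base that followed the listed end of miR-199-3p was mostly A or T. Of the tags 1 base longer, those ending in A held 75.2% in AB, 74.3% in HB, 70.8% in AA and 59.7% in HA, and those ending in T held 24.3% in AB, 25.4% in HB, 28.8% in AA and 39.9% in HA. HA thus stood apart from the other 3 in a larger share of T. The 3 most abundant tags of miR-199-3p were the listed tag and these 2 forms.
Listed tag: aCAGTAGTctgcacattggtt
With A: aCAGTAGTctgcacattggtta
With T: aCAGTAGTctgcacattggttt
They had 629182, 242961 and 114286 reads over the 4 libraries. In WAT, the log2 ratio of HA over AA was -1.21 (-1.22 to -1.19) for the form with A and -0.49 (-0.51 to -0.47) for the form with T. Which of the added bases the bat genome encodes was not determined.

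The 5′ start, which sets the seed, varied too. Among reads that hold bases 2 to 17 of miR-199-3p, the listed start held 82.9% in AB, 85.5% in HB, 76.0% in AA and 81.5% in HA. Starts 1 base earlier held 5.95% in AB, 4.94% in HB, 12.2% in AA and 9.02% in HA, and starts 1 base later held 11.2%, 9.56%, 11.8% and 9.41% in the same order. The earlier start was therefore more frequent in both WAT libraries than in both brain libraries, and in each tissue more frequent in the active library. Both shifts give another seed, shown here in capitals.
1 base earlier: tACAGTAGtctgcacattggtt
1 base later: cAGTAGTCtgcacattggtt
The tag 1 base earlier had 81655 reads in AA and 19195 in HA, more than either arm of miR-145, with a log2 ratio of -1.75 (-1.78 to -1.73) for HA over AA.

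**Figure D4:**
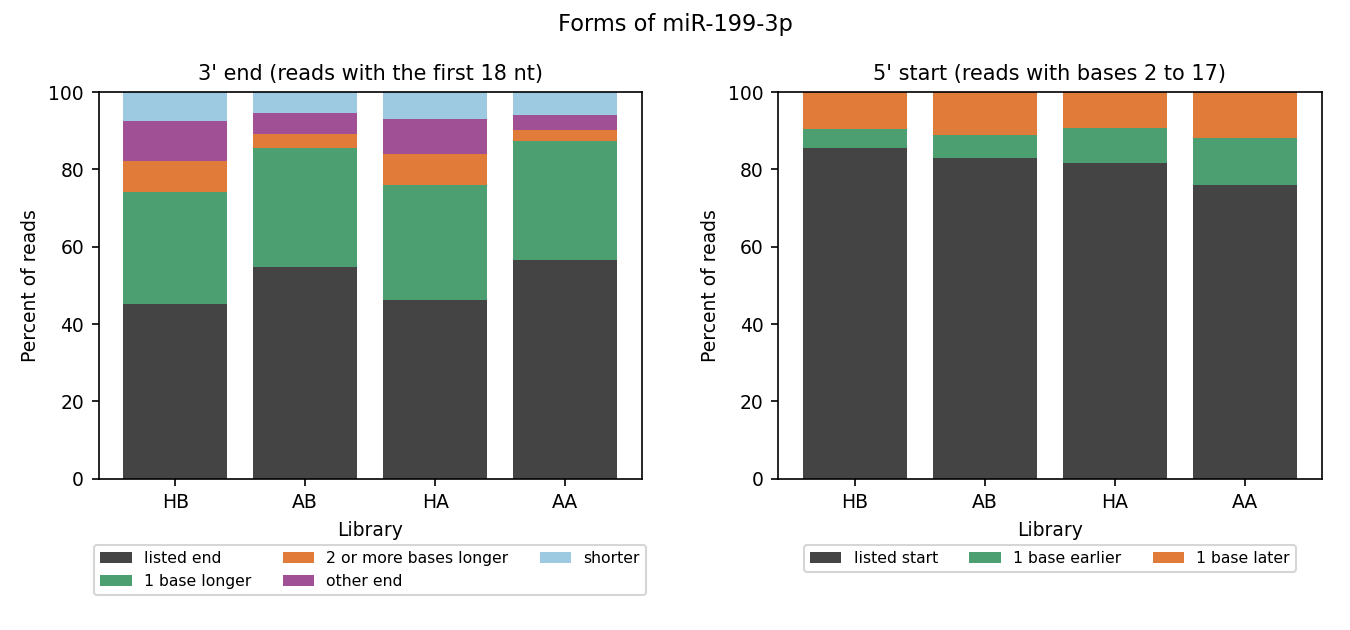
Forms of miR-199-3p in the 4 libraries as percent of reads, by 3′ end among reads with its first 18 nt (left) and by 5′ start among reads with its bases 2 to 17 (right, starts 2 or more bases earlier not drawn). The listed 3′ end holds 45.1% and 46.1% in the hibernating libraries (HB, HA) and 54.9% and 56.6% in the active ones (AB, AA), and the early start goes from 4.94% in HB to 12.2% in AA.

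The rarer members had other patterns. miR-199-5p kept its listed start in 97.3% to 100% of reads, and its listed 3′ end held 61.1% in AB, 57.1% in HB, 61.7% in AA and 57.3% in HA. The next most abundant tag, 3 bases longer, had 6, 7, 176 and 384 reads in HB, AB, HA and AA.
Listed tag: cCCAGTGTtcagactacct
3 bases longer: cCCAGTGTtcagactacctgtt
miR-145-3p started 2 or more bases before the listed start in 31.8% of reads in AB (18.6 to 47.6), 16.4% in HB (8.49 to 27.5), 24.6% in AA (21.1 to 28.4) and 34.3% in HA (31.0 to 37.7). Its leading early form has 2 more bases at the 5′ end and therefore another seed, in capitals, and was its most abundant tag after the listed one.
Listed tag: aTTCCTGGaaatactgttct
2 bases earlier: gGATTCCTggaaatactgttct
It had 7, 11, 168 and 98 reads in HB, AB, HA and AA, so in AB it exceeded the 7 reads of the listed tag. In WAT its log2 ratio of HA over AA was 1.11 (0.75 to 1.49), beside 0.67 for the listed tag, and in brain that of HB over AB was -0.64 (-2.25 to 0.86).

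Finally, the pattern of each member over the 4 libraries was set beside that of the 129 other listed miRNAs with 100 or more reads. The measure was a root mean square difference of centred log2(RPM + 1) values. Closest to miR-199-3p were miR-199-5p at 0.400, a bat-specific 3p miRNA at 0.465 and miR-365-3p at 0.535. Closest to miR-199-5p were the same bat-specific miRNA at 0.206, miR-365-3p at 0.267 and miR-199-3p at 0.400. Closest to miR-145-3p were miR-142-5p at 0.103, a miRNA of blood cells, miR-503-5p at 0.141 and miR-1-3p at 0.273, a miRNA of striated muscle. With 4 libraries, these are descriptions of likeness only.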

How the data were processed

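Small RNA of 4 pools was sequenced on the Illumina platform after gel selection. Adapters and reads of low quality were taken out by the authors, who deposited, per library, each distinct clean tag with its read count, not normalized. Counts of the 196 listed miRNAs were read from these tags with Python 3.11.15 (pandas 2.3.3, SciPy 1.17.1), by the tag identical to the listed sequence, then by tags beginning with its first 18 nt, then by tags holding its bases 2 to 17. The mature sequences came from the study's list, and no count was taken from it. A tag count leaves out other forms of a miRNA, and gene copies with the same mature sequence are counted together. Ratios between 2 libraries were scaled by TMM (edgeR 4.0.16 in R 4.3.3) over the 196 miRNAs, with clean reads, DESeq2 1.42.0 size factors and TMM over the 119 conserved miRNAs as alternatives. A size of 1 on the log2 scale with 10 or more reads made a call. The study's own test needs a spread between replicates, so none was run. Intervals are 95% Clopper-Pearson, Poisson or exact conditional intervals. A count of 0 allows up to 3 reads. The scripts were checked on simulated data.

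The members, the lists of cell types and the rule for named miRNAs were chosen with earlier results of these data known. The text names the 3 members, the 3 miRNAs closest to each in pattern, the stromal and vascular miRNAs past a log2 size of 1, the highest of each other list, the 3 most abundant tags of each member (fewer are printed where reads were few) and the hairpins next to miR-199 in arm balance. Further forms (the tags of miR-199-3p with a shifted start, 2 forms of the 5p arm of miR-145) and miR-221-3p, and the hairpins with few reads on an arm, were described after their values were seen. Capture dates and states coincide, and adipocyte miRNAs had no list.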

Additional observations from a re-analysis of the deposited data

Results flagged for a closer look

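The 5p arm of miR-145 was singled out because hibernation went with opposite directions in the 2 tissues, in pairs of pools without replicates. Counted by the first 18 nt, the 5p arm per 3p arm had a ratio of 2.23 for HB over AB and of 0.388 for HA over AA. The level of the 5p arm itself had a log2 ratio of 1.74 for HB over AB and of -0.70 for HA over AA. The difference between the tissues was not tested. Counted by bases 2 to 17, the ratios of arms were 2.65 (1.69 to 4.12) in brain and 0.369 (0.328 to 0.415) in WAT.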

How the results depend on the processing

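The log2 ratios of the 3 listed miRNAs kept their sign under the alternatives that were run, whereas the 5p arm of miR-145 in HA over AA went from 0.03 by its 19 nt tag to -0.70 by its first 18 nt. Scalings other than TMM were not run for that arm. The miR-199 5p share was lower in HB and in AA than in AB with the listed tag (0.250% and 0.215% against 0.273%) and higher in both with both 5p sequences. All of these intervals included 1. With the listed tag, 5p per 3p reads were 0.916-fold in HB over AB (0.449 to 1.83) and 0.786-fold in AA over AB (0.516 to 1.26). With both sequences they were 1.13-fold (0.694 to 1.83) and 1.17-fold (0.854 to 1.65). The counts of miRNAs called stayed within 1.5 times with no minimum count. No paired analysis was possible because each group has 1 library, and no library could be left out. Scaling moved the median of all ratios of HA over AA from -0.64 (clean reads) to 0.49 (TMM over conserved miRNAs), so the call of miR-199-3p there depends on it. Under clean reads, miR-199-3p had log2 ratios of 5.64 (AA over AB), 4.69 (HA over HB), -0.61 (HB over AB) and -1.57 (HA over AA), and in HA over AA miR-199-5p had -1.17 and miR-145-3p 0.32. Under DESeq2 size factors, miR-199-3p had 5.55, 4.62 and -0.97 in AA over AB, HA over HB and HA over AA, and miR-199-5p -0.58 in HA over AA. Under TMM over conserved miRNAs, miR-199-3p had 5.83, 4.69, -0.19 and -0.44 in the order above, and in HA over AA miR-199-5p had -0.046 and miR-145-3p 1.45, with 51 miRNAs higher and 19 lower in HA against 29 and 41.

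Under the first 18 nt, miR-199-3p had 1162, 1461, 29344 and 70865 RPM in HB, AB, HA and AA, miR-199-5p 2.30, 3.60, 66.8 and 140.1, and miR-145-3p 4.28, 2.90, 42.2 and 31.7. The log2 ratio of miR-199-3p in HA over AA was -1.02, the 5p share of miR-199 was 0.227% in HA and 0.197% in AA, miR-145-3p per 1000 miR-199-3p reads was 1.98 in AB and 0.448 in AA, and 21 miRNAs were higher in HB than in AB against 35. With the first 18 nt at the scaling of the listed tags, a setting added after seeing the data, miR-199-3p had 5.69 in AA over AB, -0.040 in HB over AB and -0.92 in HA over AA. Under bases 2 to 17, miR-199-3p had 5.84, 5.01, -0.27 and -1.23 in the order of comparisons above, the 5p share was 0.188% in HA and 0.153% in AA, miR-145-3p per 1000 miR-199-3p reads was 0.531 in AA, 1.93 in HA and 2.48 in AB, and again 21 miRNAs were higher in HB. With both 5p sequences, a count added after seeing the data, the 5p share was 0.546%, 0.484%, 0.609% and 0.567% in HB, AB, HA and AA. Per 1000000 reads of all listed miRNAs, miR-199-3p had 2502, 3339, 102678 and 191575, miR-199-5p 6.28, 9.16, 290.6 and 412.7, and miR-145-3p 8.64, 2.91, 143 and 72.3. Depth limits miR-199-5p and miR-145-3p in brain, where each had 7 to 22 reads.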

Other observations

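Tags whose first 18 nt differ from those of miR-199-3p at 1 position held 4.58%, 3.57%, 4.09% and 4.05% as many reads as miR-199-3p in HB, AB, HA and AA, over 54 different sequences, the most frequent with A15C. They were not counted with miR-199-3p. The tags with 2 substitutions in miR-199-5p differ in size from these, with 31, 30, 855 and 2390 reads of the second 5p sequence against 28, 36, 771 and 1602 of the listed one, by the first 18 nt.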
